A study of Rattus norvegicus with 6 samples.

Results

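Hepatic transcripts for cholesterol synthesis, for its control by the transcription factor SREBP2, and for cholesterol transport, esterification and efflux were followed in rats fed epsilon-momfluorothrin, a pyrethroid insecticide. The set held 34 genes, chosen by symbol: every probe set whose platform annotation carries one of the symbols belonged to it, whatever its signal. Of these, 31 genes had a probe set (53 probe sets in all) where the array had 14217 genes so represented, and 28 passed the brightness condition for testing, as did 9200 genes in all. Hmgcs1, Npc1 and Soat2 had no probe set under their symbols and are not analysed here. Mvd, Soat1 and Abcg8 had probe sets that did not exceed the array median on 3 of the 6 arrays, which was that condition.

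Livers came from 6 male BrlHan:WIST@Jcl(GALAS) rats, 7 weeks old at sampling, each hybridised to its own 1-colour Affymetrix array. In the momfluorothrin group 3 rats ate a powdered diet with the compound for 2 weeks, and in the control group 3 rats ate the same kind of diet with 0 ppm. All were purchased at 4 weeks of age and quarantined for 1 week. The labels disagree on the dietary level, which is 3000 ppm in titles and protocol but 5000 ppm in the characteristics, so the group is named by compound alone. Values are deposited linear signals, scaled so that every array had a trimmed mean of about 100. Array medians were 23.1 to 26.5 in momfluorothrin livers and 27.04 to 29.4 in control livers.

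Cholesterol is built from acetyl-CoA by way of mevalonate, farnesyl diphosphate, squalene and lanosterol. Most of the enzymes are transcribed under SREBP2, a membrane-bound factor that its escort Scap carries to the Golgi when sterols are scarce and that Insig proteins hold in the endoplasmic reticulum when sterols are plentiful. The liver is a major site of this synthesis, and it also exports cholesterol into bile and lipoproteins and esterifies it for storage.

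The promoters of 4 genes, Idi1, Fdps, Msmo1 and Insig1, show the sequence setting of the pathway. Idi1, Fdps and Msmo1 shared extremes over animals, namely the brightest control and the dimmest treated animal (below). Insig1 had the largest difference with all arrays. These promoters were chosen after the signals were seen, and are windows of 250 bases before to 50 bases after the start, from RefSeq on GRCr8. Capitals mark CCAAT, the core of the NF-Y element that accompanies many SREBP sites, or its reverse complement ATTGG. Cyp51 had the same extremes over animals, but its window holds no CCAAT on either strand and is not shown. A link between CCAAT and those extremes was not tested. The windows lie at chr17:66547475-66547774, minus strand (Idi1), chr2:176804767-176805066, minus strand (Fdps), chr16:29746863-29747162, plus strand (Msmo1) and chr4:8057720-8058019, minus strand (Insig1).
Idi1: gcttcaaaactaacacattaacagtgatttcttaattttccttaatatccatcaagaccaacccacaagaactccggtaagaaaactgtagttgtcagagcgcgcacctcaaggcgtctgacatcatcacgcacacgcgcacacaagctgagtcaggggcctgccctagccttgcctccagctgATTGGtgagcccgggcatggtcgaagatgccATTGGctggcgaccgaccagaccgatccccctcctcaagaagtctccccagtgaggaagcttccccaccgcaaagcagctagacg
Fdps: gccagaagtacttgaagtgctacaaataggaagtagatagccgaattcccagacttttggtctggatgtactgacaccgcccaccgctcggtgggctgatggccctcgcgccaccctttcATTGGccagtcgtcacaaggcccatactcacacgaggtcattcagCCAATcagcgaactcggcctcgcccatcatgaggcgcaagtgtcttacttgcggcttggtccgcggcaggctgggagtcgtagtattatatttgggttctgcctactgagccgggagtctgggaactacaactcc
Msmo1: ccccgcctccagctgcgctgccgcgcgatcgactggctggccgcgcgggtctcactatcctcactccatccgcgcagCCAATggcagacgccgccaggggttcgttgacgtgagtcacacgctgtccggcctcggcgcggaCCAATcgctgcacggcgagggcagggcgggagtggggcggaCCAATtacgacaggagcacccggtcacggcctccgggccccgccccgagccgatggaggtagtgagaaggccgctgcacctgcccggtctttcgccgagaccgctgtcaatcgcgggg
Insig1: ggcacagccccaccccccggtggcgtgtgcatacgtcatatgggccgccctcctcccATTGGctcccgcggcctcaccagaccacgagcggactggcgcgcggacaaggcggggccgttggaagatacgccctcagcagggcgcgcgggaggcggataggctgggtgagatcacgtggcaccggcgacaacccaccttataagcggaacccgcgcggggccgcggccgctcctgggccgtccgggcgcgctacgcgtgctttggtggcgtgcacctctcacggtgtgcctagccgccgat

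RefSeq windows were on hand for 28 of the 34 members, 17 of them synthesis enzymes. CCAAT, on either strand, was in 22 of these 28 windows (78.6%), against 37.5% of all 33469 windows and 37.8% of the windows of genes tested on the array. The Sp1 element GGGCGG was in 21 of 28 (75%), against 33.1% of all windows but 61.9% of the windows of genes tested. The windows of Abcg5 and Abcg8 cover nearly the same bases on opposite strands. Their shared CCAAT, and their lack of GGGCGG, are therefore counted for both genes. A form of the sterol regulatory element, TCACNCCAC, was in none of the 28 and in 1.12% of all windows. TCACACGAG, a form known from the farnesyl diphosphate synthase promoter and searched after the windows had been read, was in the Fdps window between its CCAAT elements and in no other member window, against 0.123% of all windows. These matches describe sequence and are not measurements of binding.

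No member passed the threshold of 0.05 on the adjusted p in either direction (limma, Benjamini-Hochberg over all 15778 probe sets tested), where 0.217% of all 9200 genes tested did so, 18 higher (0.196%) and 2 lower (0.0217%). Member adjusted p-values ran between 0.215 and 0.998. At an unadjusted p under 0.05, 3 members were higher in momfluorothrin livers (Insig1, Tm7sf2 and Fdft1) and 4 were lower (Insig2, Lcat, Nsdhl and Mvk), that is 25% of the 28 members against 12.2% of all genes (6.05% higher and 6.18% lower). Centring the arrays on their medians, which moves the median of all genes by 0.17 on the log2 scale, gave 4 higher and 0 lower members, and 1448 higher and 136 lower among all genes in place of 557 higher and 569 lower. Momfluorothrin and control signals did not overlap for 5 of 28 members (17.9%), 2 higher and 3 lower, close to the 18.3% of all genes (9.04% higher and 9.23% lower). The median log2 difference, momfluorothrin minus control, was 0.09 over the 18 synthesis enzymes tested and 0.00 over all 28 members, against -0.01 over all genes. Both member medians include Sqle, which met the brightness condition through its treated arrays (below).

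**Figure D1:**
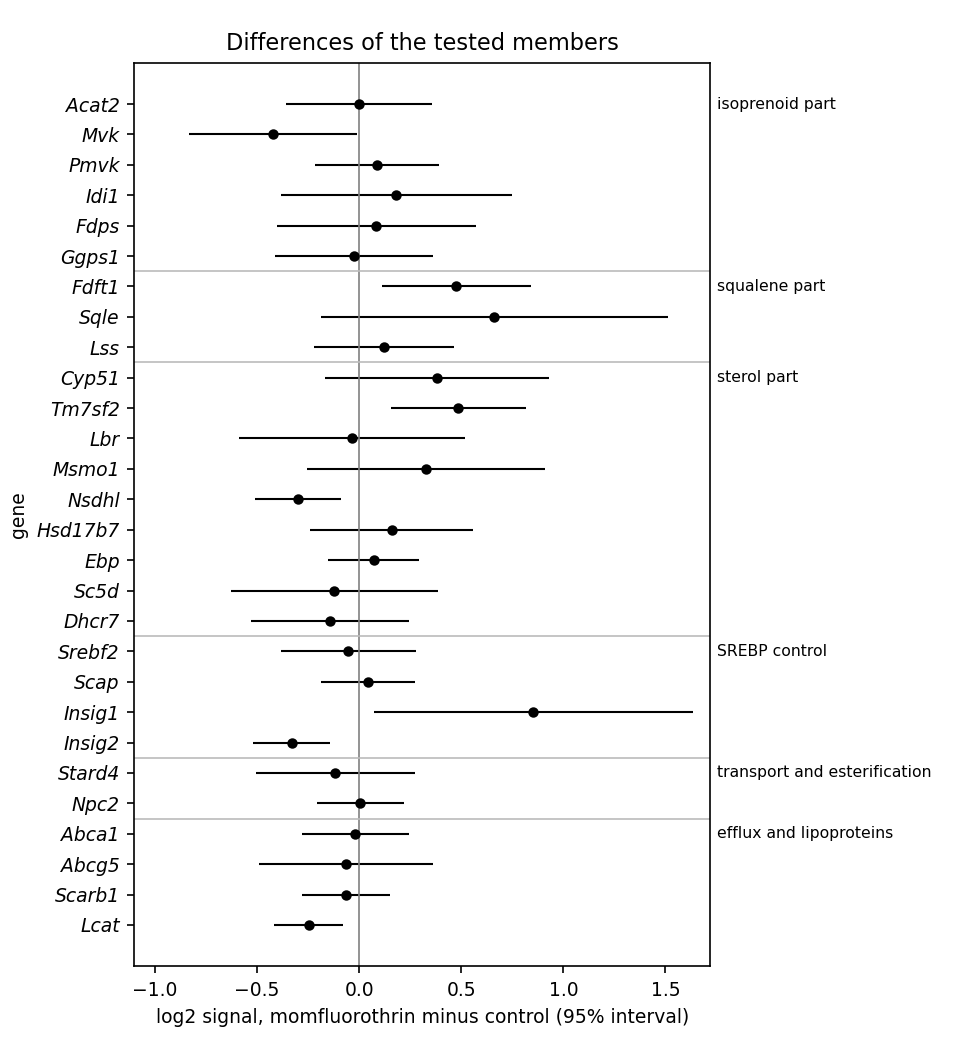
Log2 difference in signal, momfluorothrin minus control, with its 95% interval from the limma fit, for the 28 tested members in pathway order (n = 3 arrays per group). Intervals of 7 genes leave out 0 before adjustment over all probe sets. Insig1 and Sqle have the widest intervals, and that of Sqle rests on control signals below the array median.

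Of the early steps, which make the isoprenoid units, Acat2 and Pmvk lay close to 0. Acat2, the cytosolic thiolase that joins acetyl units, had signals of 69.2, 58.6 and 54.3 in momfluorothrin livers against 54.6, 65.8 and 61.4 in control livers, and the groups overlapped. Pmvk, phosphomevalonate kinase, averaged 145 ± 22.2 in momfluorothrin and 136 ± 4.21 in control livers (SD, n = 3 each; log2 difference 0.09, interval -0.22 to 0.39). Ggps1, which makes geranylgeranyl diphosphate for protein prenylation, averaged 48.3 ± 6.19 in momfluorothrin and 49 ± 3.30 in control livers (log2 difference -0.02). Its second tested probe set had a log2 difference of -0.39, with an interval of -0.97 to 0.19.

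Mvk, mevalonate kinase, was the isoprenoid gene with the largest difference on the probe set that stood for it. It had signals of 66.6, 96.5 and 63.3 in momfluorothrin livers, against 112, 94 and 92.8 in control livers. Momfluorothrin replicate 2 lay within the control range and the other treated animals below it (log2 difference -0.42 ± 0.18, SE; adjusted p = 0.429 in limma). A dimmer probe set of the gene went the other way, with a log2 difference of 0.30. Mvd, the decarboxylase that follows, was dim: its signals were 15.8, 23.2 and 12.3 in momfluorothrin livers and 22.6, 20.9 and 31.7 in control livers, with 1 control array above the array median, so no fold is given.

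Idi1, the isomerase of isopentenyl diphosphate, and Fdps, farnesyl diphosphate synthase, had a wide spread between animals of the same group. Idi1 had signals of 188, 268 and 277 in momfluorothrin livers and 320, 171 and 175 in control livers. Fdps had signals of 513, 680 and 704 in momfluorothrin livers and 840, 462 and 530 in control livers. For both genes control replicate 1 was the brightest of all 6 arrays, and momfluorothrin replicate 1 the dimmest of the treated ones. The log2 differences were 0.18 (interval -0.38 to 0.75) for Idi1 and 0.08 (interval -0.40 to 0.57) for Fdps, so a change of up to about 1.49-fold upward in Fdps lay within its interval. The second probe set of Idi1 had the opposite sign, at -0.10.

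In the squalene part Fdft1 and Lss had higher means in momfluorothrin livers, and none of the 3 enzymes passed. The mean of Sqle was also higher, but Sqle met the brightness condition through its treated arrays (below). Fdft1, squalene synthase, the first enzyme committed to sterols, had signals of 382, 480 and 451 in momfluorothrin livers against 376, 247 and 331 in control livers. The groups did not overlap, by a narrow margin between momfluorothrin replicate 1 and control replicate 1 (log2 difference 0.48 ± 0.16, SE; 1.39-fold, adjusted p = 0.327 in limma). The further probe set of Fdft1 gave 133, 180 and 141 in momfluorothrin livers and 127, 122 and 129 in control livers, again without overlap, at a log2 difference of 0.25.

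Sqle, squalene epoxidase, a rate-controlling oxygenase of the pathway, had signals of 43.1, 41.2 and 46.2 in momfluorothrin livers and 52.9, 21.2 and 18.4 in control livers. Control replicate 1 was above every treated array, while the other controls were below the array median and less than any treated array. Sqle met the brightness condition through the 3 treated arrays and 1 control array, so its fitted log2 difference of 0.66 (adjusted p = 0.533 in limma) rests on dim control signals and is not ranked against other members. Lss, the cyclase that forms lanosterol, averaged 62.9 ± 8.24 in momfluorothrin and 57.6 ± 1.51 in control livers, a log2 difference of 0.12.

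Among the 9 enzymes that turn lanosterol into cholesterol, Tm7sf2 and Nsdhl were the ones whose groups did not overlap, in opposite directions. Tm7sf2, a sterol reductase of the endoplasmic reticulum, had signals of 452, 512 and 563 in momfluorothrin livers against 386, 420 and 293 in control livers, 1.40-fold higher in the treated animals (log2 difference 0.49 ± 0.15, SE; interval 0.15 to 0.82; adjusted p = 0.275 in limma). Lbr, the nuclear envelope protein with the same reductase activity, had signals of 39.1, 46.8 and 31.1 in momfluorothrin livers and 37.5, 32.3 and 50.4 in control livers, with full overlap. Whether the difference of Tm7sf2 differs from that of Lbr was not tested.

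Nsdhl, the dehydrogenase that takes part in removing the methyl groups of lanosterol, had signals of 886, 926 and 861 in momfluorothrin livers against 1219, 1078 and 1002 in control livers. Every treated array was below every control array (log2 difference -0.30 ± 0.09, SE; adjusted p = 0.287 in limma). Its second probe set gave 391, 430 and 526 in momfluorothrin livers and 741, 590 and 480 in control livers, a log2 difference of -0.41, with treated replicate 3 inside the control range.

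Cyp51, the lanosterol demethylase, and Msmo1, the methyl sterol oxidase, shared extremes within each group with Idi1 and Fdps. Control replicate 1 was the brightest control and momfluorothrin replicate 1 the dimmest treated array. Cyp51 had signals of 529, 739 and 818 in momfluorothrin livers and 776, 421 and 443 in control livers (log2 difference 0.38, interval -0.17 to 0.93). Msmo1 had signals of 160, 246 and 240 in momfluorothrin livers and 254, 136 and 139 in control livers (log2 difference 0.33, interval -0.25 to 0.91). In both genes control replicate 1 stood with momfluorothrin replicates 2 and 3, and momfluorothrin replicate 1 stood nearer to the other controls. A second Cyp51 probe set had the same extremes within each group and a log2 difference of 0.13.

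The last steps showed small differences. Hsd17b7, the keto reductase, averaged 202 ± 26.8 in momfluorothrin and 183 ± 43.8 in control livers, and its second probe set had the opposite sign. Ebp, the sterol isomerase, averaged 582 ± 51.9 in momfluorothrin and 553 ± 31.5 in control livers, with the narrow interval of -0.15 to 0.29 on the log2 scale. Sc5d, the desaturase, was measured by 3 probe sets with log2 differences of -0.13 to 0.15. For Dhcr7, the reductase of 7-dehydrocholesterol, the signals were 190, 316 and 259 in momfluorothrin livers and 290, 260 and 277 in control livers, so the treated animals lay on both sides of the controls.

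A shared pattern over animals ran through many of the synthesis enzymes. Control replicate 1 was the brightest of the controls for 13 of 18 enzymes (72.2%), against 31.1% of all genes. Momfluorothrin replicate 1 was the dimmest treated array for 11 of 18 (61.1%), against 32.7% of all genes, and both held for 9 of 18 (50%), against 11.1% of all genes. Without Sqle these counts were 12 of 17 (70.6%), 11 of 17 (64.7%) and 9 of 17 (52.9%). Sqle is included in the median deviations given below. Relative to the other controls, control replicate 1 was 1.85-fold higher for Idi1, 1.85-fold for Msmo1, 1.80-fold for Cyp51 and 1.70-fold for Fdps. Apart from Sqle, whose other controls were dim, 4 of 17 enzymes (23.5%) reached 1.5-fold there, against 2.65% of all genes. The pattern was not particular to these enzymes: in a list of fatty acid synthesis genes (below) 5 of 13 (38.5%) reached 1.5-fold. The median deviation of the enzymes from their own means was 0.17 in control replicate 1, -0.12 in control replicate 2 and -0.13 in control replicate 3 on the log2 scale, while all genes had deviations of 0.01, 0.01 and 0.02. In momfluorothrin replicates 1, 2 and 3 it was -0.14, 0.21 and 0.22. The shares use the brightest tested probe set of each gene. On further probe sets of the counted enzymes control replicate 1 was the dimmest control for Mvk and Hsd17b7, and control replicate 3 the brightest for Fdft1. For Idi1, Ggps1, Cyp51 and Nsdhl control replicate 1 stayed the brightest control. Momfluorothrin replicate 3 was the dimmest treated array for Idi1, Ggps1 and 1 probe set of Sc5d. Replicate 1 stayed so for Fdft1, Cyp51 and the other Sc5d probe set. These shares are a description of 6 animals and were given no test, since the enzymes share arrays.

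**Figure D2:**
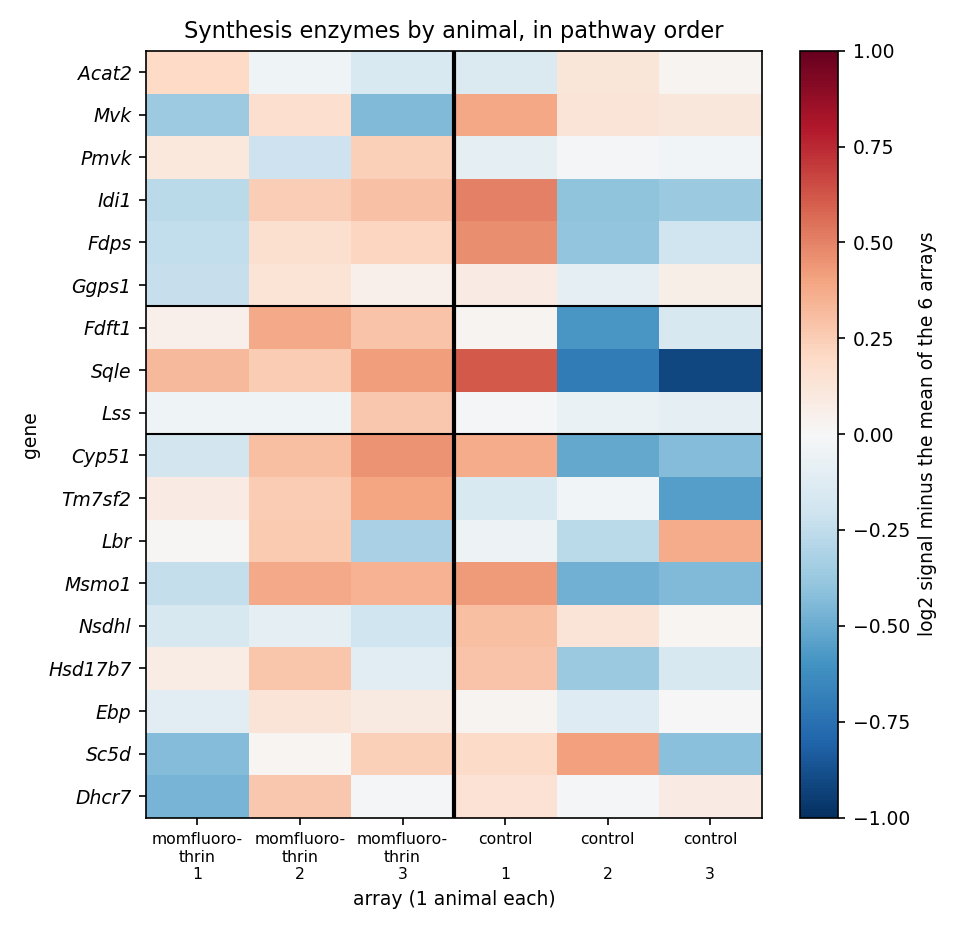
Log2 signal of each tested synthesis enzyme in each animal, minus the gene's mean over the 6 arrays (colour scale), in pathway order, with momfluorothrin arrays left and control arrays right. Idi1, Fdps, Cyp51, Msmo1 and Sqle are high in control replicate 1 and low in the other controls, and momfluorothrin replicate 1 is the lowest treated array for 11 of 18 enzymes.

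Spread within groups followed the same lines. The median within-group SD on the log2 scale was 0.26 for the 18 synthesis enzymes (Sqle among them), 0.13 for the 10 other members and 0.18 for all genes. Msmo1, Idi1 and Cyp51 varied more than at least 91.7% of all genes tested, and Insig1 more than 97.1%, whereas Nsdhl varied more than 23%, Scarb1 more than 9.55% and Lcat more than 10.2%. Single control arrays moved several differences, in both directions. Without control replicate 1 the log2 difference was 0.48 for Idi1, 0.34 for Fdps, 0.66 for Cyp51 and 0.62 for Msmo1. Without control replicate 2 it was 0.03 for Idi1, -0.09 for Fdps, 0.22 for Cyp51 and 0.17 for Msmo1. With all arrays these genes stood at 0.18, 0.08, 0.38 and 0.33. No member passed the threshold without any 1 array. At an unadjusted p under 0.05, 7 of 28 members (Sqle among them) were higher and 3 lower without control replicate 1. Of all 9200 genes, 10.8% were under it there, 492 higher and 501 lower. Leaving out any other array gave 1 to 3 higher and 3 to 4 lower members. Of all genes, 8.48% to 11.7% were then under it, both directions together.

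**Figure D3:**
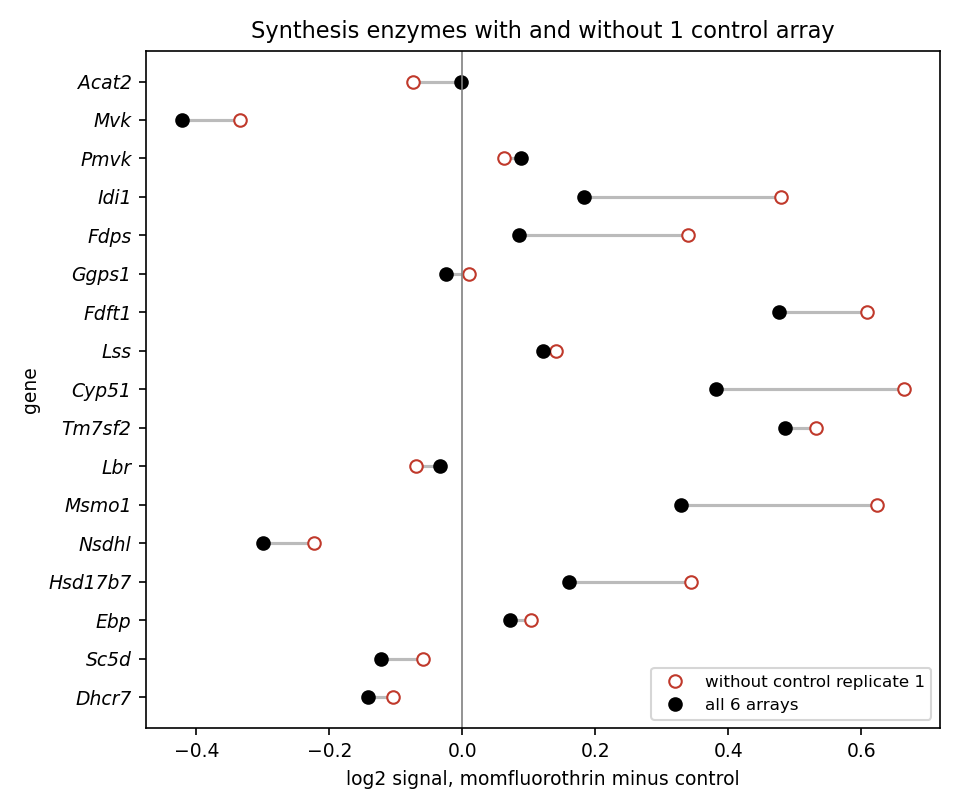
Log2 difference in signal, momfluorothrin minus control, of each tested synthesis enzyme except Sqle without control replicate 1 (open circles) and with all 6 arrays (filled circles). Leaving out that array moves Idi1, Msmo1, Cyp51 and Fdps to the right by 0.25 or more, and moves Acat2, Pmvk and Lbr slightly to the left.

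Of the genes that control SREBP2, Srebf2 and Scap lay near 0 and the Insig genes on opposite sides of it. Srebf2, which encodes SREBP2, averaged 205 ± 13.1 in momfluorothrin and 215 ± 39.4 in control livers (log2 difference -0.05, interval -0.38 to 0.28). Scap, the sterol-sensing escort, averaged 215 ± 9.40 in momfluorothrin and 209 ± 14.2 in control livers (log2 difference 0.04), while its dimmer probe set, above the array median on 1 treated array, had a difference of -0.94 with an interval that includes 0. Neither transcript gave a difference beyond its spread.

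Insig1, the retention protein that is itself an SREBP target, had the largest difference of the members with all arrays. Its signals were 736, 1652 and 1286 in momfluorothrin livers against 735, 916 and 394 in control livers. Momfluorothrin replicates 2 and 3 exceeded every control, and momfluorothrin replicate 1 was level with control replicate 1. The log2 difference was 0.85 ± 0.34 (SE; 1.81-fold, interval 1.05-fold to 3.1-fold), and the adjusted p was 0.409 in limma. Leaving out 1 array gave log2 differences of 0.50 (without control replicate 3) to 1.18 (without momfluorothrin replicate 1). Sqle, not ranked for its dim controls, had larger fitted values without control replicate 1 (1.14) and without momfluorothrin replicate 2 (0.70). Of the other members, Fdft1 was larger without control replicate 3 (0.52). Mvk was larger in size without momfluorothrin replicate 2 (-0.61, against 0.60 for Insig1). Like the enzymes, Insig1 was lowest among the treated animals in replicate 1, at 0.505 of the level of the others, but among the controls it was highest in replicate 2.

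Insig2, whose main liver transcript is known to be repressed by insulin, lay the other way on both of its probe sets. The first had signals of 3095, 3166 and 3657 in momfluorothrin livers against 4295, 4196 and 3942 in control livers, and the second had 1921, 1652 and 2121 in momfluorothrin livers against 2613, 2595 and 2545 in control livers. All treated arrays were below all controls on both. The log2 differences were -0.33 ± 0.08 and -0.45 ± 0.10 (SE; adjusted p = 0.215 and 0.144 in limma), the smallest adjusted p-values among the member probe sets. Insig2 and Lcat are among 283 very bright genes (mean signal above 2500), 63.2% of which were lower in momfluorothrin livers, with -0.06 as their median log2 difference. The part of this in the values of Insig2 and Lcat was not tested. With median centring the log2 difference was -0.16 for Insig2 and -0.07 for Lcat, with adjusted p-values of 0.592 and 0.793 in limma, and it was -0.13 for Nsdhl and -0.25 for Mvk.

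**Figure D4:**
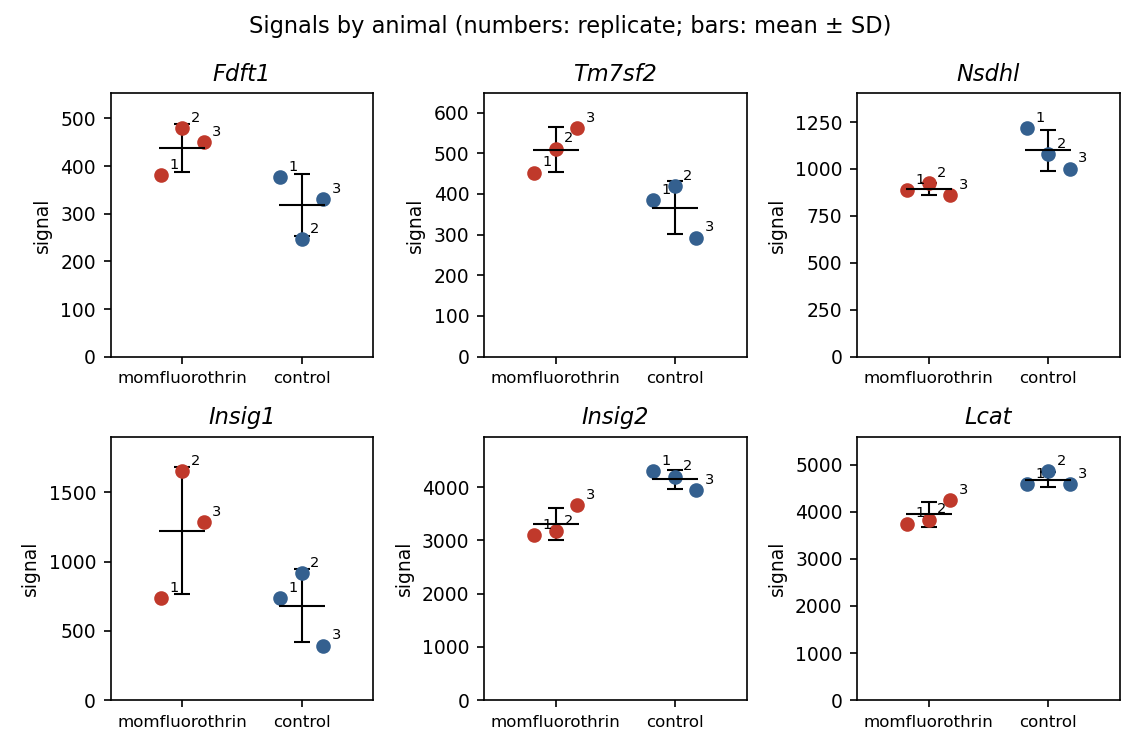
Signals of 6 members in each animal (points, numbered by replicate), with the mean and SD of each group (bars, n = 3), momfluorothrin left and control right, on linear axes from 0. Fdft1 and Tm7sf2 are higher and Nsdhl, Insig2 and Lcat lower in every treated animal, and Insig1 overlaps through momfluorothrin replicate 1.

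Transport and esterification genes were few on this array. Stard4, a soluble sterol carrier, averaged 129 ± 19.1 in momfluorothrin and 140 ± 25.7 in control livers, with a log2 difference of -0.12 and one of 0.05 for its other tested probe set. Npc2, which passes cholesterol out of lysosomes, had 784, 713 and 840 in momfluorothrin livers and 836, 743 and 747 in control livers, with a log2 difference of 0.01 and an interval of -0.21 to 0.22. Soat1, an acyltransferase that esterifies cholesterol, exceeded the array median on 1 treated array and on no control array, so no fold is given.

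Of the 4 tested genes of efflux and lipoproteins, Lcat alone had an unadjusted p under 0.05. Lcat, the plasma enzyme that esterifies the cholesterol of high-density lipoprotein, had signals of 3749, 3831 and 4254 in momfluorothrin livers against 4584, 4858 and 4590 in control livers. No treated array reached a control array, and both groups were tight (log2 difference -0.25 ± 0.07, SE; 0.842-fold, adjusted p = 0.272 in limma). Abca1, the pump that loads cholesterol onto apolipoprotein A-I, was read by 4 probe sets with log2 differences of -0.26 to -0.02, and the groups did not overlap on 1 of them.

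Abcg5, a half-transporter that exports sterols into bile, had signals of 166, 157 and 133 in momfluorothrin livers and 129, 214 and 144 in control livers, with overlap. Its partner Abcg8 was dim, at 18.5, 30.5 and 16.1 in momfluorothrin livers and 22.6, 38.6 and 15.4 in control livers. Scarb1, the receptor for high-density lipoprotein, averaged 277 ± 19.5 in momfluorothrin and 289 ± 4.74 in control livers, with an interval of -0.28 to 0.15 on the log2 scale, and its second probe set had a log2 difference of 0.02. The sign of Abca1, Abcg5 and Scarb1 turned with median centring and when single arrays were left out.

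Where a member had more than 1 tested probe set, the probe sets shared a sign for 6 of 13 genes: Ggps1, Fdft1, Cyp51, Nsdhl, Insig2 and Abca1. In every alternative setting that gave them a value (15, but 14 for Sqle and Lss, which the stricter brightness filter removed), 13 of the 28 members kept the sign of their difference. Of these, 9 were higher in momfluorothrin livers (Idi1, Fdft1, Sqle, Lss, Cyp51, Tm7sf2, Msmo1, Ebp and Insig1) and 4 lower (Mvk, Nsdhl, Insig2 and Lcat). Sqle is counted here although it met the brightness condition through its treated arrays. Among these 13, Mvk and Idi1 had a second probe set of the opposite sign. The other 15 members changed sign in at least 1 alternative. Alternatives that changed the brightness filter, the variance model or the block left every log2 difference they gave as it was, by construction. Agreement of signs in those settings was therefore fixed in advance. The share of all genes that kept their sign was not counted.

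Neighbouring genes outside the set, taken from fixed lists, gave no call either. Of 12 tested genes of sterol control and electron supply, 0 passed and 2 were higher at an unadjusted p under 0.05. That was 16.7% of the list, against 12.2% of all genes in both directions. Groups did not overlap for 33.3% of the list, 3 higher and 1 lower, against 18.3% of all genes. Tmem97, a sterol-responsive membrane protein, had signals of 355, 318 and 329 in momfluorothrin livers against 259, 218 and 195 in control livers, without overlap (log2 difference 0.59 ± 0.12, SE; adjusted p = 0.141 in limma). Cyb5r3, the cytochrome b5 reductase that feeds sterol oxidations, averaged 1207 ± 12 in momfluorothrin and 1055 ± 44.5 in control livers, a log2 difference of 0.20.

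Of 13 tested genes of fatty acid synthesis 0 passed. Srebf1, which encodes the lipogenic SREBP1, had signals of 187, 157 and 164 in momfluorothrin livers against 253, 256 and 202 in control livers (log2 difference -0.48 ± 0.13, SE; adjusted p = 0.225 in limma). Me1, malic enzyme, a source of NADPH for lipid synthesis, had 315, 327 and 345 in momfluorothrin livers against 203, 291 and 121 in control livers (log2 difference 0.77 ± 0.26, SE; adjusted p = 0.333 in limma). In this list control replicate 1 was the brightest control for 8 of 13 genes and momfluorothrin replicate 1 the dimmest treated array for 8 of 13. Both held for 5 of 13 (38.5%). Control replicate 1 was at least 1.5-fold above the other controls for 5 of 13 (38.5%), with a median of 1.24-fold. That median was 1.16-fold over the 18 synthesis enzymes and 1.14-fold without Sqle.

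Isoprenoid side branches and oxysterol genes had medians near 0. Of 11 tested branch genes 0 passed, with a median of -0.04, Rabggtb, a subunit of the prenyltransferase of Rab proteins, at -0.19 and Dhdds, of dolichol synthesis, at 0.27. Of 8 tested genes of the oxysterol and LXR list 0 passed, with a median of 0.01, Nr1h3, which encodes LXR alpha, at -0.19 and Abcg1, a sterol efflux transporter, at -0.22. At an unadjusted p under 0.05 neither list had a gene.

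Cell type markers were read on the same arrays. All 7 hepatocyte markers with a probe set were tested, with summed signals of 56120 to 62340 in momfluorothrin and 62044 to 69112 in control livers. All 7 had log2 differences below 0, with a median of -0.15, as Insig2 and Lcat did. All 7 also had mean signals above 2500, a class of which 63.2% was lower in momfluorothrin livers. Of 4 cholangiocyte markers with a probe set 2 were below the array median on all arrays and 1 was tested, and the summed signal was 145 to 169 in momfluorothrin and 93.8 to 116 in control livers. Most of that sum was the 1 tested marker, Epcam, which averaged 126 ± 16.6 in momfluorothrin and 81.8 ± 14.1 in control livers. Summed markers of Kupffer, stellate, endothelial, lymphoid, blood, pancreas and fat cells overlapped between the groups. Below the array median on all arrays were 4 of 7 lymphocyte and neutrophil and 5 of 6 pancreas and fat markers. Groups did not overlap for 42.9% of the 7 hepatocyte markers (Ttr, Serpina1 and Ahsg, all lower), against 18.3% of all genes. Of 5 tested endothelial markers 40% did not overlap. These were Lyve1, higher (log2 difference 0.31), and Eng, lower (-0.45). In whole liver, fewer cells of a type and less RNA per cell cannot be told apart, and the part of cell makeup in the members' values was not tested. The part of signal brightness or array scaling in the marker values was not tested either.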

How the data were processed

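Total RNA of 6 rat livers was hybridised to Affymetrix arrays, 1 per animal. The authors deposited linear intensities, 1 per probe set. MAS5 is the tool named in the submitters' processing notes, without version or settings. The table held no detection calls. Trimmed means (2% left out at each end) were about 100 on every array, so no further scaling was applied.

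Of 31099 probe sets, 57 controls were left out, and 15778 exceeded their array's median on at least 3 of 6 arrays and were kept. GEO's platform annotation gave 1 symbol for 20826 probe sets, several for 436 (unused) and none for 9780; 20758 were matched to the GRCr8 gene table. Each gene was represented by its brightest kept probe set (mean log2 signal).

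Log2 signals, with no pseudocount, were compared with limma 3.58.1 in R 4.3.3 (eBayes with intensity trend, 2-sided, Benjamini-Hochberg over kept probe sets, threshold 0.05). The number of arrays limits the precision; read depth does not apply. The code was checked on simulated data. All members are named whatever their values, and of each neighbouring list the 2 genes with the smallest p. Members and lists were chosen with earlier results of these data known. Animals are separate biological replicates per the labels. Same-numbered animals' deviations from group means correlated at r = -0.0997, 0.105 and -0.0648, so the numbers were not taken as pairs. Alternatives changed the filter, scaling, pseudocount (16), variance model, weights, probe set rule and block, and left out each array in turn.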

Additional observations from a re-analysis of the deposited data

How the results depend on the processing

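No member passed the threshold in any of the 15 alternatives (limma, 0 higher and 0 lower in each). With 1 value per gene, the smallest member adjusted p in these alternatives was 0.164 in limma, for Insig2 with the mean over probe sets. The second probe set of Insig2 had 0.144 in the main fit. The median log2 difference of the synthesis enzymes was 0.09, lay between 0.06 and 0.09 in the alternatives with all arrays except median centring (0.26, where the median of all genes was 0.16), and between 0.04 and 0.16 when an array was left out. The variance model and the block cannot change this median. Over all genes, 18 were higher and 2 lower. The counts were 49 and 1 with median centring, 15 and 1 without a filter, 19 and 4 with quantile normalization, 17 and 4 with the mean over probe sets, and 2 and 0 with eBayes without a trend in limma (439 and 535 at an unadjusted p under 0.05). Leaving out an array gave 3 to 19 higher and 1 to 2 lower, with 13 and 1 without momfluorothrin replicate 1, 3 and 1 without momfluorothrin replicate 2, and 5 and 2 without momfluorothrin replicate 3. With the replicate number as a block 10 genes were higher and 3 lower, and of the treated animals replicate 2 alone correlated best with the control of its own number. The causes of these shifts were not tested. With 3 arrays per group, intervals had a median width of 0.75 on the log2 scale over the members, and probe sets near the array median (Mvd, Soat1, Abcg8) give no usable level.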
